A study of Mus musculus with 6 samples.

Results

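The Bcl2 family was followed in neural stem cells of young and old mice through the probe sets that carry 1 platform gene symbol, that symbol being Bcl2, Bcl2l1, Mcl1, Bax, Bak1, Bid, Bad, Bcl2l11 or Pmaip1. Of these 9 genes 8 were found, with 28 probe sets out of 45037 on the array once controls were set aside, and 8 of 18194 named genes. No probe set is listed under Bax in the annotation used here, so Bax has no values. Executioner caspases were not analysed here. Messenger RNA was measured on 6 Affymetrix arrays, each with 1 sample, 3 of YoungNSC at 6 weeks and 3 of OldNSC at 9 months. Both groups are C57BL/6JRj mice, and the labels name no allele, transgene or agent in either. The labels give neither the brain region nor whether the cells were cultured or pooled from several animals, and they do not say that replicates came from separate animals. The spread behind every p-value is therefore that between these arrays, and it may be technical.

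Proteins of this family decide whether the outer membrane of mitochondria stays closed. Bcl2, Bcl2l1 (Bcl-xL) and Mcl1 keep it closed, Bax and Bak1 open it, and the BH3-only proteins Bid, Bcl2l11 (Bim), Bad and Pmaip1 (Noxa) carry death signals to both. Once the membrane opens, cytochrome c leaves and caspases are switched on. In the brain this route removes surplus progenitors and newborn neurons. Much of its control lies in cleavage, phosphorylation and turnover of the proteins, which arrays of messenger RNA do not read.

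Values are log2 expression levels, normalized between arrays by the authors, so a difference of 1 is a doubling. The lowest value on the array was 2.14. A probe set was kept and tested if at least 3 of the 6 arrays read above 4, which held for 20 of the 28. A probe set was called where its limma p, adjusted over all 19858 kept probe sets, lay under 0.05. Levels of different probe sets are not compared with each other, since each has its own response.

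Bcl2 was lower in old cells by all 3 of its kept probe sets, and Pmaip1, Bid and Bak1 were higher by 1 probe set each. Pmaip1 and Bid were about doubled, Bcl2 fell by 0.56 to 0.71 on the log2 scale, and Bak1 rose by 0.18. No kept probe set of Bcl2l1, Mcl1, Bad or Bcl2l11 was called. In all 6 of the 20 kept probe sets were called, 3 higher and 3 lower, which is 30%, against 36.6% of all kept probe sets (20.1% higher and 16.5% lower). The ages did not overlap in 10 of the 20, against 55.3% of all kept probe sets. By the brightest kept probe set of each gene, 3 of 8 genes rose and 1 fell, against 40.6% of 10050 genes called in either direction. These shares lie near the background of a comparison in which much of the array differed. The median size of a change was 0.11 over the 20 probe sets and 0.25 over all kept ones (log2, sign left aside). Mcl1 alone supplied 6 of the 20. By the brightest kept probe set of each gene the medians were 0.15 over the 8 genes and 0.23 over all 10050. In bulk RNA, fewer cells with a transcript and less of it per cell cannot be told apart.

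The stretch of 250 bases before the annotated start is shown for Bcl2, Bid and Bak1, 3 of the 4 called genes, so that the one that fell can be set beside 2 that rose. That of Pmaip1 is not shown here. Sequences come from RefSeq on GRCm38.p6 and run 5′ to 3′ on the gene's strand, the minus strand for each of them. Capitals mark matches, on either strand, to the GC box GGGCGG or to the cAMP response core TGACGT.
Bcl2, chr1:106714291-106714540: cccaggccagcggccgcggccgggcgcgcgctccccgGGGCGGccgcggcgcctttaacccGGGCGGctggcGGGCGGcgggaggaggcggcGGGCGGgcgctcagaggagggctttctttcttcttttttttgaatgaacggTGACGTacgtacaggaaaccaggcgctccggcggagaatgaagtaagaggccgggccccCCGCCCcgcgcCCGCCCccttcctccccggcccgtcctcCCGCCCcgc
Bid, chr6:120916825-120917074: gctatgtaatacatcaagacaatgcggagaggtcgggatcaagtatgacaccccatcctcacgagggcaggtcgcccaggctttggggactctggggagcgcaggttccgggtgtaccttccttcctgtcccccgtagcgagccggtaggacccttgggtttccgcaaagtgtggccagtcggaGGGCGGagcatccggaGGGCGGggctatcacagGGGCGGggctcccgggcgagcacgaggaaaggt
Bak1, chr17:27028628-27028877: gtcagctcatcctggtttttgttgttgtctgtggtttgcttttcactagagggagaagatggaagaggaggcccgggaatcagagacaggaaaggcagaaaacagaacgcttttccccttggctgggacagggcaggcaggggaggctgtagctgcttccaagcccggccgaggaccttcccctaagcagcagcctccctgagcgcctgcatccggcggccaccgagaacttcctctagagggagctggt

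The Bcl2 stretch held 7 GC boxes and 1 cAMP response core, which begins 107 bases before the start. The Bid stretch held 3 GC boxes, all in the last 66 bases, and that of Bak1 none. A GC box occurred in 32.7% of the 32851 stretches of this length in the table and the cAMP response core in 6.47%. The E-box CACGTG (6.02% of all stretches), the forkhead core GTAAACA (3.17%) and the TATA box TATAAA (12.4%) were searched as well and had no match in these 3. None of the 5 motifs contains another. The share of G and C was 74.8% for Bcl2, 63.6% for Bid and 58.4% for Bak1, against a median of 52.4%. Uncalled members held GC boxes as well: Mcl1 had 1, Bad 3 before its first listed start and 0 before its second, and Bcl2l11 had 3 and 2. The forkhead core matched once, 227 bases before the first of the 2 listed starts of Bcl2l11, and none of the 5 motifs matched before any of the 3 listed starts of Bcl2l1. These matches describe letters only and are not measured binding sites.

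The labelled cell type was checked against its markers. Of 13 neural stem cell markers with a probe set 12 were kept, and 1 rose and 4 fell with age. Of all kept genes 40.6% were called in either direction, so this count lies near the background. Msi1 rose by 0.52 (adjusted p = 0.00712). Nes had a change of -0.46 (adjusted p = 0.00746), Egfr of -0.40 (adjusted p = 0.00302) and Sox9 of -0.35 (adjusted p = 0.00437). Sox2, Vim and Fabp7 were among those kept and not called. Of those that fell, Hes5, a target of Notch signalling, was kept through its young arrays alone. It read 7.52 to 7.91 on the young arrays and 2.14 to 2.73 on the old ones. The summed level of the 13 was 16.87 to 16.92 in young and 16.79 to 16.81 in old arrays (log2). That sum is weighted to the brightest markers, Vim, Fabp7 and Slc1a3, none of which was called. Markers of microglia and blood (0 of 9 kept), mesenchyme (0 of 6) and oligodendrocytes (0 of 3) lay at or near the lowest value, with 8, 5 and 2 of them at it on every array. Their summed levels were 5.31 in young and 5.31 to 5.37 in old, 4.72 to 4.75 in young and 4.72 in old, and 3.72 in young and 3.72 to 3.73 in old arrays. Of the endothelial markers only Flt1 was kept of 5, and it fell. Pecam1, Cldn5 and Cdh5 were at the lowest value on every array, and the list summed to 6.52 to 6.75 in young and 5.45 to 6.01 in old arrays. Of the neuronal markers 3 of 6 were kept, with Rbfox3 and Stmn2 at the lowest value on every array. The list summed to 13.69 to 13.76 in young and 13.81 to 13.86 in old arrays, nearly all of it from Map2. Map2 alone read 13.68 to 13.75 in young and 13.81 to 13.86 in old arrays, a change of 0.12 (adjusted p = 0.0857). The other kept markers were dim. Snap25 was lower in old cells and was kept through its young arrays alone, and Syp was at -1.13 (adjusted p = 0.0550). All 18 hybridisation control probe sets were lower on every old array, by 0.96 in the mean (log2, two-sided exact permutation p = 0.1, the lowest value open to 3 against 3). The part of these markers and controls in the results was not tested. Young replicate 2 stood apart from the other young arrays at several members, as described below.

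**Figure D1:**
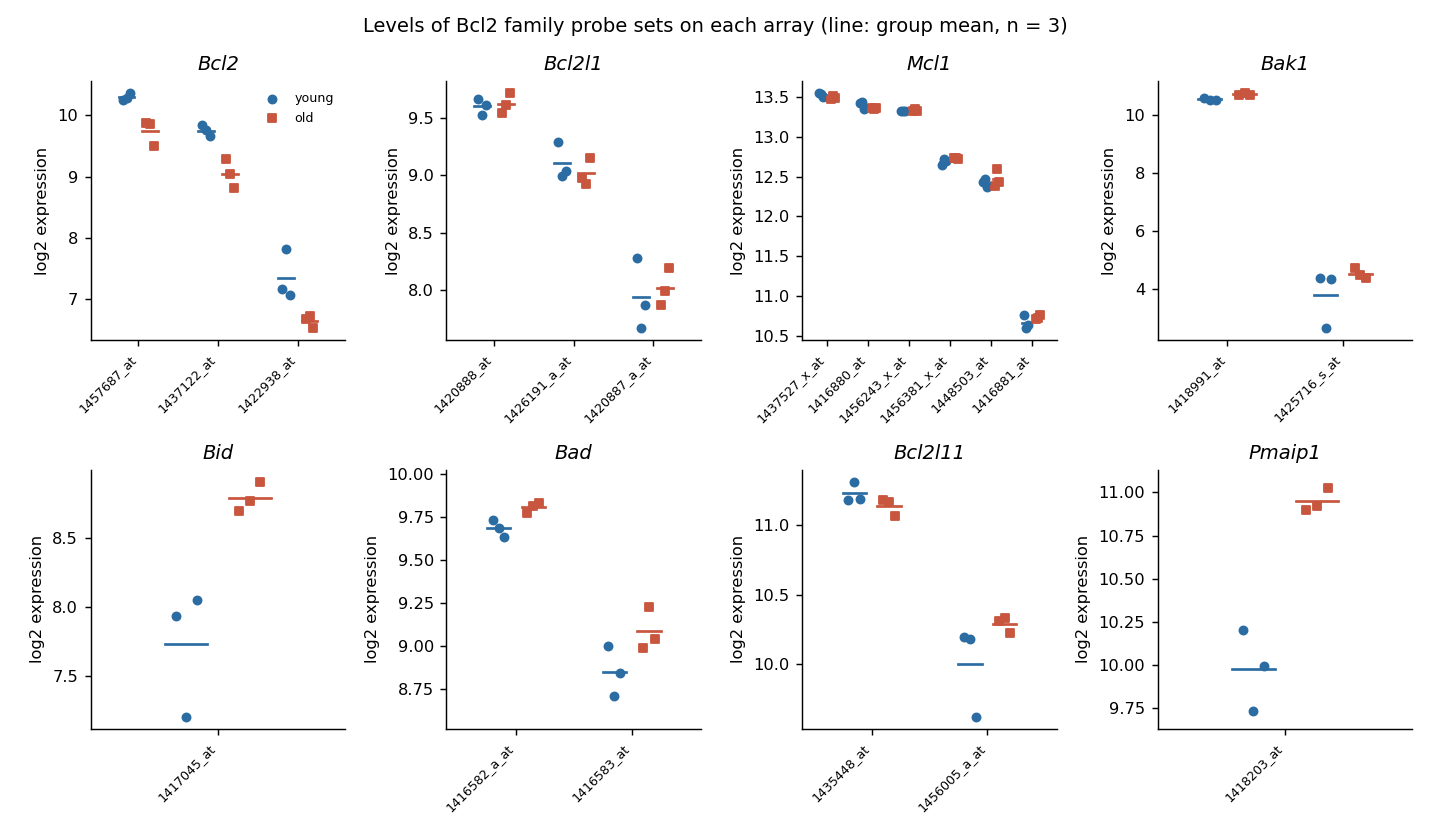
Log2 expression of the 20 kept probe sets on each of the 6 arrays, 1 panel per gene with its own vertical axis. Blue circles are young and red squares old arrays, and lines are group means of 3. No old array of Bcl2 reached the young ones and no young array of Bid or Pmaip1 reached the old ones, while the ages were mixed at Bcl2l1.

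Of the member guardians Bcl2, Bcl2l1 and Mcl1, only Bcl2 was called. Its brightest probe set (1457687_at) read 10.26, 10.28 and 10.37 on the young arrays and 9.87, 9.86 and 9.51 on the old ones. Every old array was below every young one, with old replicate 3 lowest. The change was -0.56 (95% interval -0.84 to -0.27, adjusted p = 0.0148), a 1.47-fold fall.

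The second probe set of Bcl2 (1437122_at) read 9.84, 9.75 and 9.66 in young and 9.28, 9.05 and 8.82 in old cells. Every old array was again below every young one, with a change of -0.70 (95% interval -1.03 to -0.38, adjusted p = 0.0108), a 1.63-fold fall. The third (1422938_at) read 7.16, 7.81 and 7.07 in young and 6.67, 6.72 and 6.52 in old cells. Here the young arrays spread widely, since replicate 2 was high, and the change of -0.71 (95% interval -1.23 to -0.18) passed narrowly (adjusted p = 0.0488).

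The Bcl2 calls differed in how firmly they held. The call at 1437122_at was kept on leaving out any 1 array (adjusted p 0.00894 to 0.0417). The call at 1457687_at was lost without young replicate 3 (adjusted p = 0.0530, change -0.53). The call at 1422938_at was lost without young replicate 1 (adjusted p = 0.0671), young replicate 3 (0.0520), old replicate 1 (0.111), old replicate 2 (0.106) or old replicate 3 (0.141). Without young replicate 2 that change was -0.47 (adjusted p = 0.0157), and without the filter on low values the call was lost (adjusted p = 0.0899). All 3 changes stayed below 0 in every one of these fits.

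The remaining 2 probe sets of Bcl2 were under the filter. They reached 5.68 and 5.01 on young replicate 2 and lay between 2.14 and 2.92 on the other 5 arrays. They were thus above 4 on 1 array alone and were not tested.

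Bcl2l1, whose long form Bcl-xL protects neurons and their precursors, showed no difference with age that passed. Its brightest probe set (1420888_at) read 9.66, 9.52 and 9.61 in young and 9.54, 9.61 and 9.71 in old cells. The groups overlapped, with a change of 0.02 (95% interval -0.15 to 0.19, adjusted p = 0.813). The other 2 kept probe sets, both designed to match several transcripts of the gene, had changes of -0.09 (95% interval -0.35 to 0.18) and 0.08 (95% interval -0.37 to 0.52). These intervals leave room for a change of up to 1.44-fold at the least precise probe set. Another probe set was at 2.14 on all 6 arrays.

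Mcl1, a short-lived guardian that many dividing cells depend on, had 6 probe sets, all kept and none called. Their levels ran from 10.59 to 13.56 over probe sets and arrays, and their changes from -0.04 to 0.07 (adjusted p 0.415 to 0.900). The probe set 1416880_at, for example, read 13.43, 13.43 and 13.35 in young and 13.36, 13.36 and 13.36 in old cells. Only at 1456381_x_at did the ages not overlap, with 12.64, 12.72 and 12.70 in young and 12.73, 12.73 and 12.73 in old cells, a change of 0.04 (adjusted p = 0.478). The 95% intervals of the 6 ran from -0.16 to 0.22 at the widest, so a change beyond 1.17-fold lay outside each of them. Of the 6, 3 are of the kind whose probes may also match other sequences.

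**Figure D2:**
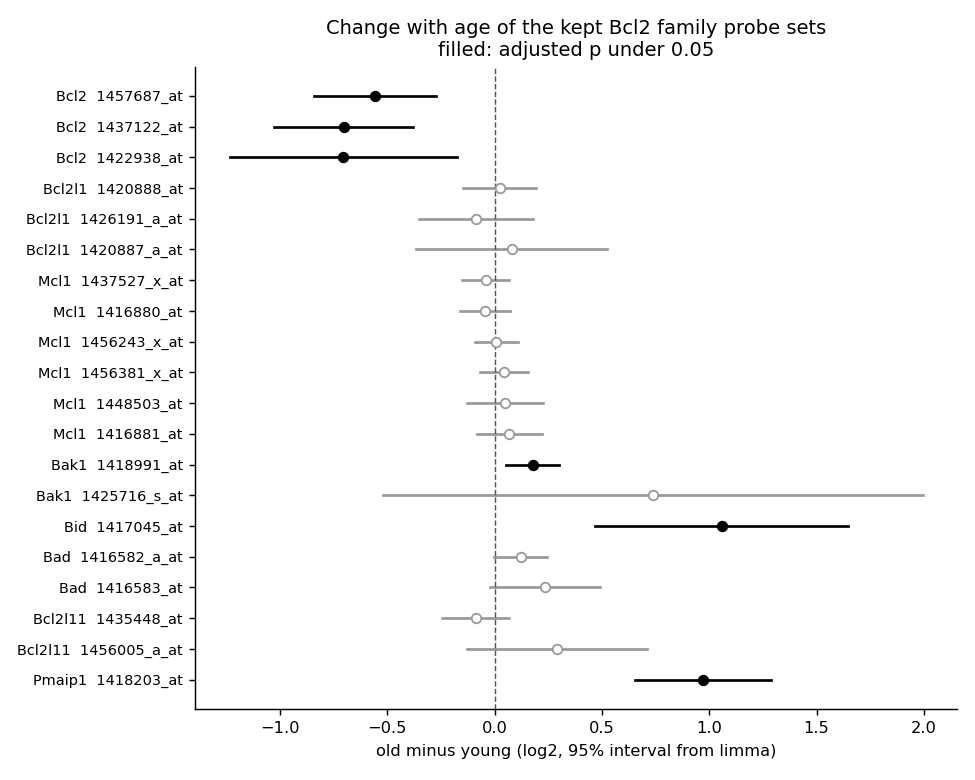
Old minus young change in log2 units for each of the 20 kept probe sets, with the 95% interval from limma on 3 young and 3 old arrays. Filled black points passed the adjusted threshold of 0.05: 3 of Bcl2 to the left of 0, and 1 each of Bak1, Bid and Pmaip1 to the right. The Mcl1 intervals lie within -0.16 to 0.22, and that of the dim Bak1 probe set is the widest.

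Of Bax and Bak1, which open the membrane, only Bak1 could be read. Its bright probe set (1418991_at) read 10.59, 10.52 and 10.54 in young and 10.70, 10.78 and 10.71 in old cells. All old arrays were above all young ones, by a small margin. The rise was 0.18 (95% interval 0.05 to 0.30, adjusted p = 0.0399), or 1.13-fold, and the call was lost on leaving out any 1 array (adjusted p 0.0537 without young replicate 1, 0.0849 without young replicate 2, 0.100 without young replicate 3, 0.0799 without old replicate 1, 0.125 without old replicate 2 and 0.0941 without old replicate 3). With the trend and robust options of eBayes it did not pass either (adjusted p = 0.0689).

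The other probe set of Bak1 (1425716_s_at), of a kind that can match more than 1 transcript or gene, was close to the filter. It read 4.38, 2.63 and 4.33 in young and 4.71, 4.47 and 4.37 in old cells. Young replicate 2 was the low one, and the old replicate 3 lay within the young range. The change of 0.74 had a wide interval (-0.52 to 2.00) and did not pass (adjusted p = 0.294).

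Among the called probe sets, the largest changes were those of 2 BH3-only genes, Bid and Pmaip1. Pmaip1 encodes Noxa, a target of p53 that binds Mcl1 and speeds its breakdown. Its single probe set (1418203_at) read 10.20, 9.74 and 9.99 in young and 10.90, 10.92 and 11.03 in old cells. The old arrays were close together and all above the young ones, of which replicate 2 was lowest. The rise was 0.97 (95% interval 0.65 to 1.29, adjusted p = 0.00355), or 1.96-fold. It was kept on leaving out any 1 array, with changes of 0.85 to 1.08 and adjusted p of 0.00395 to 0.0181.

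Bid links death receptors to mitochondria, since caspase-8 cleaves it into its active form. Its kept probe set (1417045_at) read 7.93, 7.21 and 8.05 in young and 8.70, 8.76 and 8.91 in old cells. The ages were apart, and young replicate 2 was again the lowest array. The rise was 1.06 (95% interval 0.47 to 1.65, adjusted p = 0.0199), or 2.08-fold. Without young replicate 2 it was 0.80 (adjusted p = 0.00484). The call was lost without old replicate 1 (adjusted p = 0.0538), old replicate 2 (0.0626) or old replicate 3 (0.0707), where the change was 1.10, 1.07 and 1.00. The other 2 probe sets of Bid stayed between 2.14 and 2.51 on every array and were not tested.

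Bad, which binds Bcl2 and Bcl-xL unless survival kinases phosphorylate it, did not pass. Its brighter probe set (1416582_a_at) read 9.73, 9.69 and 9.63 in young and 9.77, 9.81 and 9.83 in old cells. The ages did not overlap, with a change of 0.12 (95% interval -0.002 to 0.25, adjusted p = 0.109). The other (1416583_at) read 9.00, 8.71 and 8.84 in young and 8.99, 9.23 and 9.04 in old cells, a change of 0.23 (95% interval -0.02 to 0.49, adjusted p = 0.128). Both values lay on the same side of 0, and the intervals leave room for a rise of up to 1.40-fold.

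Bcl2l11 encodes Bim, the BH3-only protein that FoxO factors induce when growth factors are withdrawn. Its kept probe sets pointed opposite ways, and the ages did not overlap at either. At 1435448_at this was barely so, with 11.1789 on the lowest young array and 11.1786 on the highest old one. The brighter (1435448_at) read 11.18, 11.31 and 11.18 in young and 11.18, 11.17 and 11.06 in old cells, a change of -0.09 (95% interval -0.25 to 0.07, adjusted p = 0.310). The other (1456005_a_at) read 10.20, 10.18 and 9.62 in young and 10.31, 10.33 and 10.22 in old cells, a change of 0.29 (95% interval -0.13 to 0.71, adjusted p = 0.228). Young replicate 3 was the low array there, and neither probe set passed. The 3 other probe sets of Bcl2l11 stayed at 2.14 to 2.16 on every array.

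**Figure D3:**
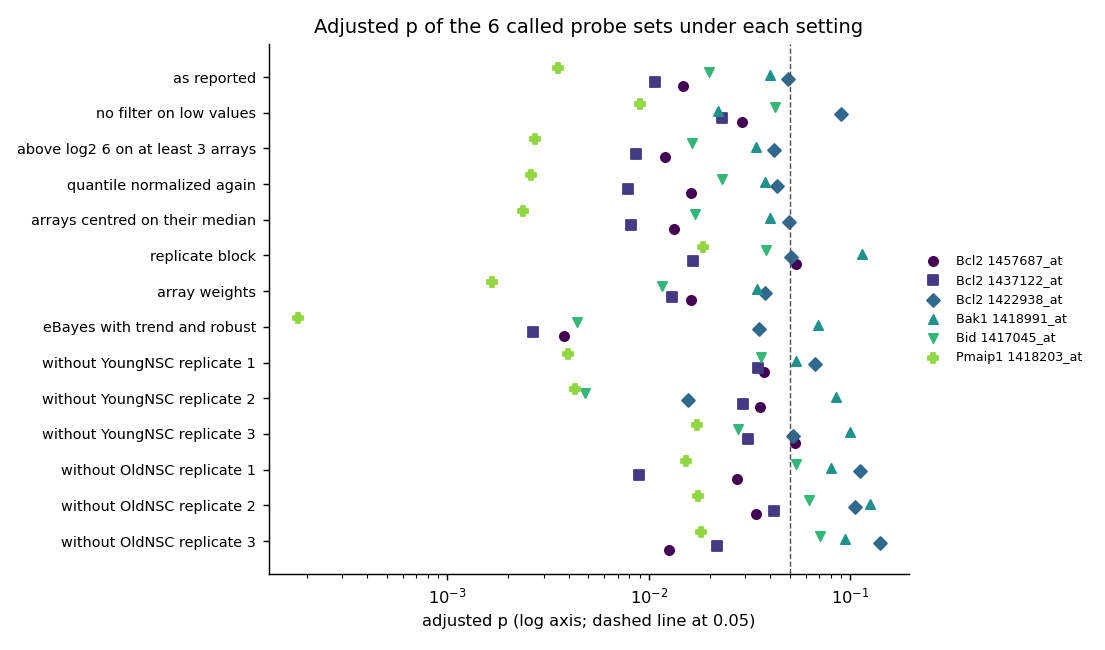
Adjusted p from limma, on a log axis with a dashed line at 0.05, for the 6 called probe sets as reported and under 13 other settings. The Pmaip1 points and those of Bcl2 1437122_at lie left of the line throughout. The Bak1 points lie right of it on leaving out any 1 array.

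The rest of the pathway was read from lists of genes, each gene standing for its brightest kept probe set. These lists were drawn up with earlier results of the same arrays known, so their counts are a description. Of all 10050 kept genes 22.0% rose and 18.5% fell, the ages did not overlap in 60.0%, and the median change was 0.01.

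Of 16 other members of the wider Bcl2 family 12 had a probe set and 6 were kept, of which 3 rose and 2 fell (median change 0.23). Bok, a relative of Bax and Bak1, rose by 0.82 (adjusted p = 0.00720), and Bcl2l2, the guardian Bcl-w, rose by 0.38 (adjusted p = 0.0202). Bnip3, a mitophagy receptor, had a change of -1.65 (adjusted p = 0.000347) and Bcl2l13 one of -0.36 (adjusted p = 0.0280). The third that rose was Bcl2l12, by 0.50 (adjusted p = 0.0479), named after its value was seen. Another 6 genes, Bcl2l10, Bcl2l14, Bik, Bbc3, Bmf and Hrk, lay at 2.14 to 2.18 on every array. Of these, Bik, Bbc3, Bmf and Hrk are BH3-only genes.

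On the side of death receptors and initiator caspases, 4 of 7 kept genes rose and none fell (median change 0.30), with Casp8 left out because it was kept through its old arrays alone. Ripk1 had no listed probe set, and Tnfrsf10b was left out by the filter (2.14 to 3.22). Casp8, which cleaves Bid, read 2.42, 2.20 and 2.26 in young and 5.92, 6.02 and 5.75 in old cells. It was under the filter level on every young array and above it on every old one, at least 3.72-fold measured against that level. No p is given for it, since the filter kept it only through the age where it is high and the young values lie near the lowest value. Tnfrsf1a, a receptor of tumour necrosis factor, rose by 0.60 (adjusted p = 0.00451), Casp9, the caspase of the apoptosome, by 0.30 (adjusted p = 0.0104) and the adaptor Fadd by 0.31 (adjusted p = 0.0137). At another kept probe set of Fadd the change was 0.72 (adjusted p = 0.205). The fourth, named after its value was seen, was the caspase-8 regulator Cflar, at 0.24 (adjusted p = 0.0473) with 0.00 at its next brightest probe set (adjusted p = 0.994).

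Among the 6 genes of the apoptosome and of proteins released from mitochondria, 2 rose and 1 fell (median change 0.19). Aifm1, a flavoprotein of the space between the membranes, rose by 0.23 (adjusted p = 0.0105) and the nuclease Endog by 0.16 (adjusted p = 0.0391), and by 0.50 at its other kept probe set (adjusted p = 0.0236). Apaf1, the scaffold of the apoptosome, had a change of -0.26 (adjusted p = 0.0228). Htra2 had a change of 0.31 (adjusted p = 0.0584), and 0.45 at its other probe set (adjusted p = 0.0475). Of 4 kept inhibitors of apoptosis 1 fell and none rose (median change -0.09), namely Birc5 (survivin), which also serves in mitosis, at -0.41 (adjusted p = 0.00638). Xiap, which blocks caspases directly, was at 0.16 (adjusted p = 0.125), Birc6 at -0.13 (adjusted p = 0.543) and Birc2 at -0.05 (adjusted p = 0.547). Birc3 was at 2.14 on every array.

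Of 6 kept partners at the outer membrane 1 rose and none fell (median change 0.04), the co-chaperone Bag1 by 0.20 (adjusted p = 0.0399). The channel Vdac2, which binds Bak at mitochondria, was at 0.05 (adjusted p = 0.464). Mtch2, which receives cleaved Bid at mitochondria, was at 0.07 (adjusted p = 0.329) by its brightest probe set and at 0.34 (adjusted p = 0.00680) by another. Tmbim6 was at 0.04 (adjusted p = 0.524), and Tspo was under the filter at 2.14 to 2.15. Of 13 kept regulators of Mcl1, Bim and Bad 2 rose and 1 fell (median change 0.06). Foxo3, which switches on Bim, had a change of -0.58 (adjusted p = 0.00314), and -0.55 at its other kept probe set (adjusted p = 0.00231). Ppp3ca, the calcineurin subunit that dephosphorylates Bad, rose by 0.25 (adjusted p = 0.0117). At its other kept probe sets the change was 0.06 (adjusted p = 0.509) and 0.32 (adjusted p = 0.00830). Fbxw7, a ubiquitin ligase subunit that marks Mcl1 for breakdown, rose by 0.17 (adjusted p = 0.0406), with 0.28 at its other kept probe set (adjusted p = 0.101). Huwe1, another ligase of Mcl1, was at -0.58 (adjusted p = 0.0597).

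**Figure D4:**
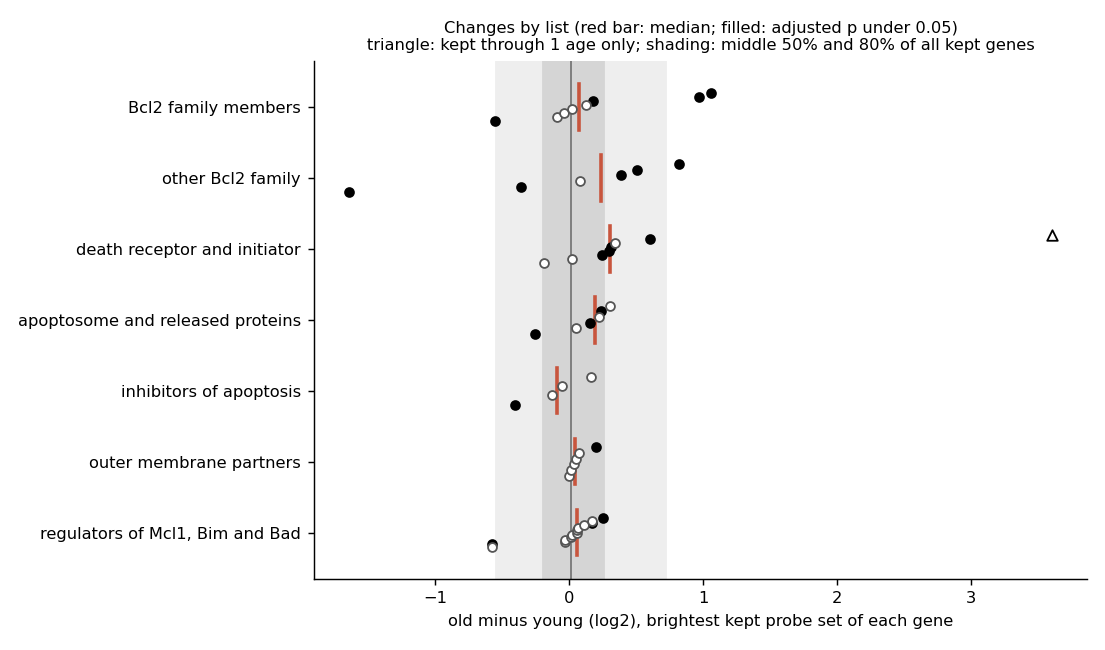
Old minus young change in log2 units of the brightest kept probe set of each gene, by list. Filled points passed the adjusted threshold of 0.05, red bars are list medians, and shading spans the middle 50% and 80% of all 10050 kept genes. The triangle far to the right is Casp8, kept through its old arrays alone. Its plotted position is fitted and exceeds the 3.72-fold bound. The lowest point is Bnip3 at -1.65.

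Likeness of profile was described by Pearson's r over the 6 arrays, which form 2 age groups of 3, so that a high r mostly restates a shared gap between the ages. Genes nearest to Pmaip1 were Pgap2 (r = 0.9996), Dhrs2 (r = 0.9995) and Acad11 (r = 0.999). Those nearest to Bid were Osbpl3 (r = 0.999), Bmyc (r = 0.999) and Inf2 (r = 0.998). Those nearest to Bcl2 were Cep57 (r = 0.994), Ube2s (r = 0.994) and Pdzrn3 (r = 0.994). For Bcl2l1, where the ages overlapped, the nearest were Zbed3 (r = 0.991), the death receptor Fas (r = 0.982) and Ostm1 (r = 0.973). All were picked as the highest r among 10050 kept genes over 6 arrays, where some high values arise by selection alone, and none was tested. Profiles nearest to Mcl1, Bak1, Bad and Bcl2l11 are not shown here.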

How the data were processed

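The deposited values are log2 expression per probe set, made by the authors; per the submitters' processing notes the tool was GCRMA. It subtracts background by probe sequence, so dim probe sets pile up near 2.14 and their spread there is understated. No GCRMA version was given in the sources used here. Names came from the platform annotation, where 34945 probe sets had 1 symbol, 932 several and 9160 none listed; the last 2 kinds were tested but not named. Old and young arrays were compared with limma 3.58.1 in R 4.3.3 (lmFit, eBayes, two-sided, 95% intervals from the moderated fit), with Benjamini-Hochberg adjustment over the 19858 probe sets above log2 4 on at least 3 arrays. The script was tested on simulated data. Figures used matplotlib 3.10.9. No 2 arrays were identical; their number limits the precision. The members and lists were chosen with earlier results of these data known. Named were every member, the 4 or fewer list genes lowest in p, and the 3 nearest profiles each of Pmaip1, Bid, Bcl2 and Bcl2l1. Alternatives were other filters, normalizations, array weights, eBayes options, a replicate block, a threshold of 0.01, probe set means and leaving out each array.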

Additional observations from a re-analysis of the deposited data

How the results depend on the processing

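Under other filters, repeated quantile normalization, median centring, array weights, eBayes options and, for the lists, probe set means, counts of calls stayed within 1.5 times those reported. At an adjusted p under 0.01, limma called 2148 probe sets higher and 1629 lower in old cells. Among the members it called 1 higher (Pmaip1) and 0 lower, where 3 are lower at an unadjusted p under 0.05, and in the pathway lists 3 higher and 3 lower, against 13 and 5 of 43 genes at 0.05. Casp8, kept through its old arrays alone, is among the 13, and without it 12 of 42 rose. It is also counted among the 3 higher at 0.01, the others being Bok and Tnfrsf1a. Since the filter kept Casp8 only through the age where it is high, its calls in these counts are not read as a result. The list counts below, on leaving out 1 array and with a replicate block, are over all 43 genes with Casp8 among them. Leaving out 1 array gave 2768 to 3961 probe sets higher and 2177 (without old replicate 2) to 3301 lower. It left 1 to 2 members higher, 1 (without young replicate 3) to 3 lower, 7 to 9 list genes higher and 3 to 5 lower. With 1 array left out a group holds 2, and fewer calls follow in part from fewer samples. No pairing by replicate number showed: deviations of same-numbered arrays correlated at -0.16, -0.11 and 0.16, and 2 of 6 arrays correlated best with their own number. With so few arrays this cannot exclude pairing. A replicate block gave 3144 probe sets higher and 2456 lower, 2 members higher and 1 lower, and 7 list genes higher and 4 lower. The member calls lost with it were Bcl2 1457687_at (adjusted p = 0.0536), Bcl2 1422938_at (adjusted p = 0.0506) and Bak1 1418991_at (adjusted p = 0.114).

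Signs turned only at probe sets that were not called. For Bcl2l1, 1420888_at went to -0.0032 on repeated quantile normalization. Leaving out 1 array gave -0.024 to 0.065 at 1420888_at, -0.056 to 0.25 at 1420887_a_at and -0.15 to 0.0053 at 1426191_a_at. For Mcl1, 1456243_x_at went to -0.0029 on median centring, and 1448503_at ran from -0.013 (without old replicate 2) to 0.089 on leaving out 1 array. The cause was not tested. Detection calls were not used here, and the level of log2 4 takes their place.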
